A study of Mus musculus with 2 samples.

Results

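The 4 mouse Fc gamma receptor genes Fcgr1, Fcgr2b, Fcgr3 and Fcgr4, and Fcer1g, were described in chromatin-associated RNA of unstimulated macrophages. Fcer1g encodes the signalling chain shared by the receptors of Fcgr1, Fcgr3 and Fcgr4. The 5 genes were chosen by gene symbol in the GENCODE M21 annotation. They make up 5 of 55536 annotated genes and 5 of 22015 nuclear protein-coding genes. All 5 were found in the gene tables, and their 17 annotated transcripts were found in both kinds of transcript table. The cells were primary macrophages grown from bone marrow of C57BL/6J mice, and the single group was the 0-minute point of a lipid A series at 100 ng/ml, so no stimulated cells are compared here. Lipid A is the part of bacterial endotoxin that macrophages sense. RNA of the chromatin fraction was depleted of ribosomal RNA and sequenced in 2 libraries, from 250 ng of RNA in replicate 1 and 500 ng in replicate 2. The labels call these biological replicates but give both the same donor entry and no sex or age, so whether they came from separate animals is unknown. With 1 group no test between conditions was possible, and an SD covers only the spread between these 2 libraries.

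Fc gamma receptors bind the constant part of IgG and let macrophages take up coated particles and respond to immune complexes. Fcgr1, Fcgr3 and Fcgr4 encode activating receptors. They carry their signal through the gamma chain encoded by Fcer1g, whose tyrosine motif is phosphorylated by Src-family kinases and then binds the kinase Syk. Fcgr2b encodes the inhibitory receptor, whose own tail recruits the lipid phosphatase encoded by Inpp5d. RNA attached to chromatin is largely RNA still being made or spliced, so its levels describe nascent and retained RNA and not the receptors on the cell surface.

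Sequences of Fcgr2b and Fcgr3 bear on how far their reads can be told apart. The exon of the second immunoglobulin-like domain lies at chr1:170966446-170966700 in Fcgr2b and at chr1:171053939-171054193 in Fcgr3 (mm10, both on the minus strand). Both are printed 5′ to 3′ from the annotated transcripts, with the positions that differ in capitals.
Fcgr2b: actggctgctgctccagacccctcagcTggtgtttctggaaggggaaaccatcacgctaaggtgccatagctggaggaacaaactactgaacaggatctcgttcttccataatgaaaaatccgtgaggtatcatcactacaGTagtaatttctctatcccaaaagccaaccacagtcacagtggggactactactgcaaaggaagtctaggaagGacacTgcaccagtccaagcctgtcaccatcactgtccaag
Fcgr3: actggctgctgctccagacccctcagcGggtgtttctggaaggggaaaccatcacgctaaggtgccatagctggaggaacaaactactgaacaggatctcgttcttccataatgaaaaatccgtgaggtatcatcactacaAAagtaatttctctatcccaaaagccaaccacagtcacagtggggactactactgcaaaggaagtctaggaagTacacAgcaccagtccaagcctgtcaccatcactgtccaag
The exons share 250 of 255 bases (98.0%), and those of the first domain share 241 of 258 aligned bases (93.4%). Fcgr4 stood further off, with 57.8% to 63.6% identity to either gene over these exons. Of the distinct 31-base words in the Fcgr3 transcripts 13.4% also occur in Fcgr2b and in no other gene, and these make up 4.15% of the Fcgr2b words, of which 8.15% occur in any other gene. No 31-base word of Fcgr1 or Fcer1g occurs in another gene. Longer words overlap less. Of 100-base words, 2.54% of those of Fcgr3 also occur in Fcgr2b, and 4.30% of those of Fcgr2b in any other gene.

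Fcgr2b, the inhibitory receptor gene, was by far the most abundant of the 5 in the gene table. Levels are in TPM, which scales read counts by library total and by an effective length. The deposited counts and TPM put this length below the transcript's own, so a count on a short transcript weighs more. The annotated transcripts hold intron for some of these genes and not for others, which limits comparison between genes. Fcgr2b (ENSMUSG00000026656.15, chromosome 1, 170958617 to 170976547, minus strand) stood at 217.65 TPM in replicate 1 and 239.22 TPM in replicate 2 (228 ± 15.3 TPM, SD, n = 2). These values rested on 2874 and 4795 expected counts, that is, reads with those fitting several transcripts shared out. Both libraries were high, and their mean ranked 99 among nuclear protein-coding genes.

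Fcer1g (ENSMUSG00000058715.11, chromosome 1, 171229572 to 171234365, minus strand) came next in level, with 39.33 and 41.94 TPM (40.6 ± 1.85 TPM) from 147 and 222 counts. Among the activating receptors Fcgr3 (ENSMUSG00000059498.13, chromosome 1, 171051174 to 171064935, minus strand), a low-affinity receptor gene, was highest at 20.49 and 20.69 TPM (20.6 ± 0.141 TPM) from 227 and 347 counts. Fcgr1 (ENSMUSG00000015947.10, chromosome 3, 96282909 to 96293969, minus strand), which encodes the high-affinity receptor, stood at 15.57 and 11.85 TPM (13.7 ± 2.63 TPM) from 331 and 431 counts. Fcgr4 (ENSMUSG00000059089.4, chromosome 1, 171018920 to 171029761, plus strand), known for binding IgG2a and IgG2b, was lowest at 4.28 and 3.69 TPM (3.99 ± 0.417 TPM) from 45 and 58 counts. In this order, Fcgr2b, Fcer1g, Fcgr3, Fcgr1 and Fcgr4, no gene's replicates overlapped with those of the next. The mean of Fcgr2b was 5.62-fold that of Fcer1g, Fcer1g was 1.97-fold above Fcgr3, Fcgr3 1.5-fold above Fcgr1, and Fcgr1 3.44-fold above Fcgr4.

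Each of the 5 genes reached 1 TPM in both libraries, the level called detected here, against 46.7% of nuclear protein-coding genes. Among the genes that reached it, the mean TPM of Fcgr2b lay at percentile 99.04, Fcer1g at 84.8, Fcgr3 at 69.4, Fcgr1 at 57.2 and Fcgr4 at 21.5. The nearest nuclear protein-coding genes in log2(TPM + 1) over both replicates included Lgals3 for Fcgr2b, Tlr8 and Tfec for Fcer1g, Gtf2h2 and Tmem8 for Fcgr3, Gstt2 and Ms4a6d for Fcgr1, and Cutc and Mdm1 for Fcgr4. With 2 libraries these neighbours share a level and nothing more is measured.

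**Figure D1:**
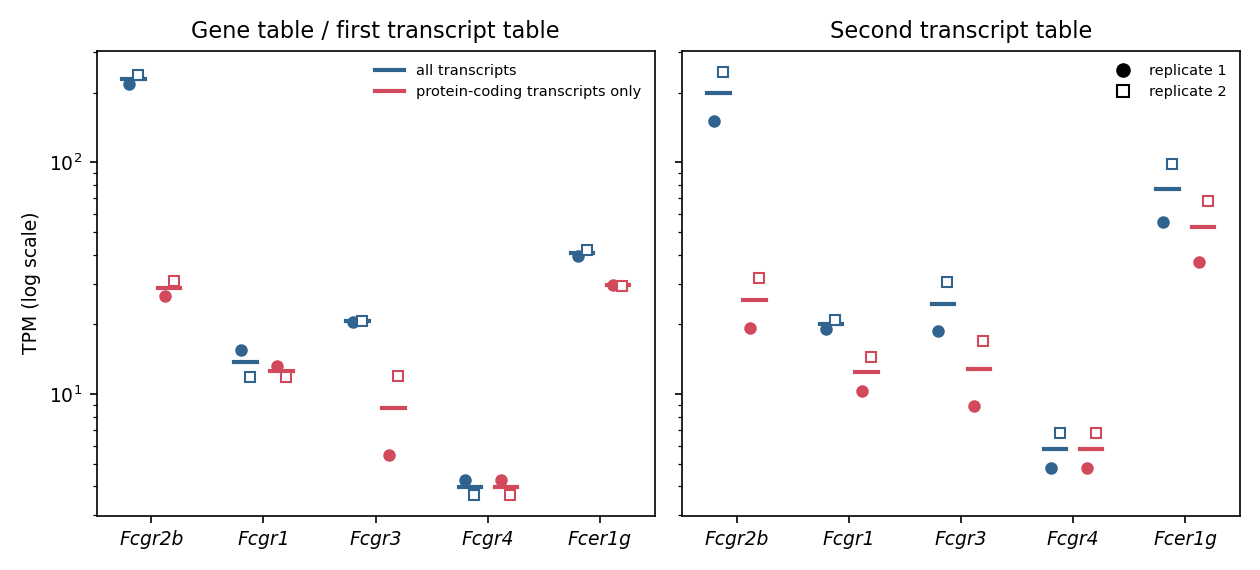
TPM (log axis) of each gene in replicate 1 (filled circles) and replicate 2 (open squares), with the mean of both as a line, over all annotated transcripts (blue) and over protein-coding transcripts only (red). The left panel uses the gene table and first transcript table and the right panel the second transcript table. In both, Fcgr2b leads over all transcripts and drops when only protein-coding transcripts are kept.

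The summed level of the 3 activating receptors was several-fold below that of Fcgr2b. Fcgr1, Fcgr3 and Fcgr4 together came to 40.34 TPM in replicate 1 and 36.23 TPM in replicate 2, so Fcgr2b was 5.40-fold and 6.60-fold higher. The log2 ratio of the activating sum to Fcgr2b was -2.58 ± 0.206 (SD, n = 2). Taken singly, Fcgr3 was 10.6-fold and 11.6-fold below Fcgr2b, Fcgr1 14.0-fold and 20.2-fold, and Fcgr4 50.9-fold and 64.8-fold. Fcgr3 made up 54.0 ± 4.46% of the activating sum, Fcgr1 35.7 ± 4.16% and Fcgr4 10.4 ± 0.3%. The order of Fcgr3 and Fcgr1 depended on the measure. In the second transcript table the mean shares were 48.1% for Fcgr3 and 40.4% for Fcgr1. Fcgr1 led on counts not divided by length (53.2% against 39.6%) and on protein-coding transcripts of the first table (50.3% against 33.7%). On those of the second each had 40.5%. In gene-table TPM the gamma chain gene was close to the receptors that use it, at 0.975 times the activating sum in replicate 1 and 1.16 times in replicate 2. Other measures did not keep this closeness. Fcer1g was 1.29 and 1.69 times the sum in the second transcript table, and 0.244 and 0.266 times on counts not divided by length.

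The lead of Fcgr2b lay in TPM assigned to transcripts that are not annotated as coding for the receptor. In the first transcript table, made with the gene table, 12.1% and 12.8% of Fcgr2b TPM fell on protein-coding transcripts in replicates 1 and 2. Another 53.7% in each replicate fell on 2 transcripts annotated as retained intron, and 34.2% and 33.4% on a transcript annotated as processed transcript. The second transcript table gave nearly the same protein-coding share, 12.7% and 12.9%. Over 6353 genes with 100 or more counts per library and transcripts of more than 1 class, the median protein-coding share was 45.6%, and Fcgr2b lay at percentile 5.34. The share was under 50% in both replicates for 52% of those genes, and among Fcgr1, Fcgr2b, Fcgr3 and Fcer1g for Fcgr2b alone.

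The single transcripts show how these reads were assigned. Fcgr2b-205, a retained-intron transcript, held 78.34 and 90.30 TPM, and its deposited intervals, 66.5 to 73.6 and 80.0 to 86.5 TPM, did not overlap between replicates. These intervals are around a posterior mean that lies below the TPM itself, and their level is not stated in the labels or headers. Fcgr2b-206, the processed transcript, held 74.38 and 79.95 TPM, and the short retained-intron transcript Fcgr2b-207 held 38.49 and 38.25 TPM. By contrast the full-length coding transcript Fcgr2b-201 held 17.87 and 17.99 TPM and the coding transcript Fcgr2b-202 held 8.57 and 12.72 TPM. Per length, all 3 non-coding transcripts thus stood above both coding transcripts in each library. In counts only Fcgr2b-205 did, at 1631 and 2810. Fcgr2b-201 held 612 and 921 counts, above Fcgr2b-206 (433 and 692) and Fcgr2b-207 (89.7 and 131). Measured in reads and not per length, 59.9% and 61.3% of Fcgr2b counts went to the retained-intron transcripts and 25.1% and 24.2% to protein-coding ones.

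The non-coding transcripts contain stretches of intron. Of the 2250 bases of Fcgr2b-205, 1369 lie outside the exons of every coding transcript of the gene. For Fcgr2b-206 this is 397 of 802 and for Fcgr2b-207 it is 214 of 462. The rest of each lies in exons of coding transcripts, so reads assigned to them need not come from intron. The boundaries where exon runs into intron without a splice are printed below, 30 bases to each side and 5′ to 3′, with the exon in capitals, for the main such transcript or transcripts of 3 genes. They lie at chr1:170965672-170965731 (Fcgr2b-205), chr1:170961204-170961263 (Fcgr2b-206), chr1:171057919-171057978 (Fcgr3-203) and chr1:171231147-171231206 (Fcer1g-202), all mm10 and minus strand.
Fcgr2b-205: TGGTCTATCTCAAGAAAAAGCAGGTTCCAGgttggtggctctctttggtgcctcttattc
Fcgr2b-206: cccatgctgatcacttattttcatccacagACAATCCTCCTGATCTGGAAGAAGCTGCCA
Fcgr3-203: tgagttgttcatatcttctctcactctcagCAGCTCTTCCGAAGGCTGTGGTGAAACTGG
Fcer1g-202: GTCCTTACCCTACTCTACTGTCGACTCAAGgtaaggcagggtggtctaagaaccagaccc
In each, the intron's edge carries the usual splice site letters, gt after an exon or ag before one. In Fcgr3-203 the intron part is 106 bases and in Fcer1g-202 it is 126 bases. Fcgr1 and Fcgr4 have no annotated transcript with bases outside their coding transcripts, so reads from their introns had no place in these tables. Of the genomic length, 32.3% is covered by annotated transcripts for Fcgr2b, 23.4% for Fcgr1, 18.2% for Fcer1g, 12.6% for Fcgr3 and 11.6% for Fcgr4. How far this difference in annotation accounts for the order of the gene-table levels was not tested.

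With only protein-coding transcripts counted, a comparison added after the data were seen, Fcgr2b no longer stood above Fcer1g. This comparison can also drop reads over coding exons, where these were assigned to non-coding transcripts. In the first table Fcgr2b then stood at 26.44 and 30.71 TPM and Fcer1g at 29.46 and 29.40 TPM, and the replicates overlapped. Fcgr1 followed at 13.25 and 11.85 TPM, Fcgr3 at 5.49 and 12 TPM, overlapping with Fcgr1, and Fcgr4 at 4.28 and 3.69 TPM. The log2 ratio of the activating sum to Fcgr2b moved from -2.58 to -0.18 ± 0.0302. In the second transcript table, again with protein-coding transcripts only, it was 0.30 ± 0.0321 and so changed sign. Fcgr2b then stood at 19.3 and 31.6 TPM against 24.0 and 38.2 TPM for the activating sum. Fcer1g stood at 37.0 and 68.3 TPM there, 2.07-fold above Fcgr2b in the mean, with no overlap of the replicates. Of this, 24.5 and 47.0 TPM lay on Fcer1g-203, annotated as coding but holding 74 bases of an intron of Fcer1g-201. Fcer1g-201 alone, at 12.6 and 21.3 TPM, lay below Fcgr2b in each library. The ratio of the activating sum to Fcgr2b thus stayed below 1 with coding transcripts alone in the first table and over all transcripts in the second, and passed 1 with coding transcripts alone in the second.

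**Figure D2:**
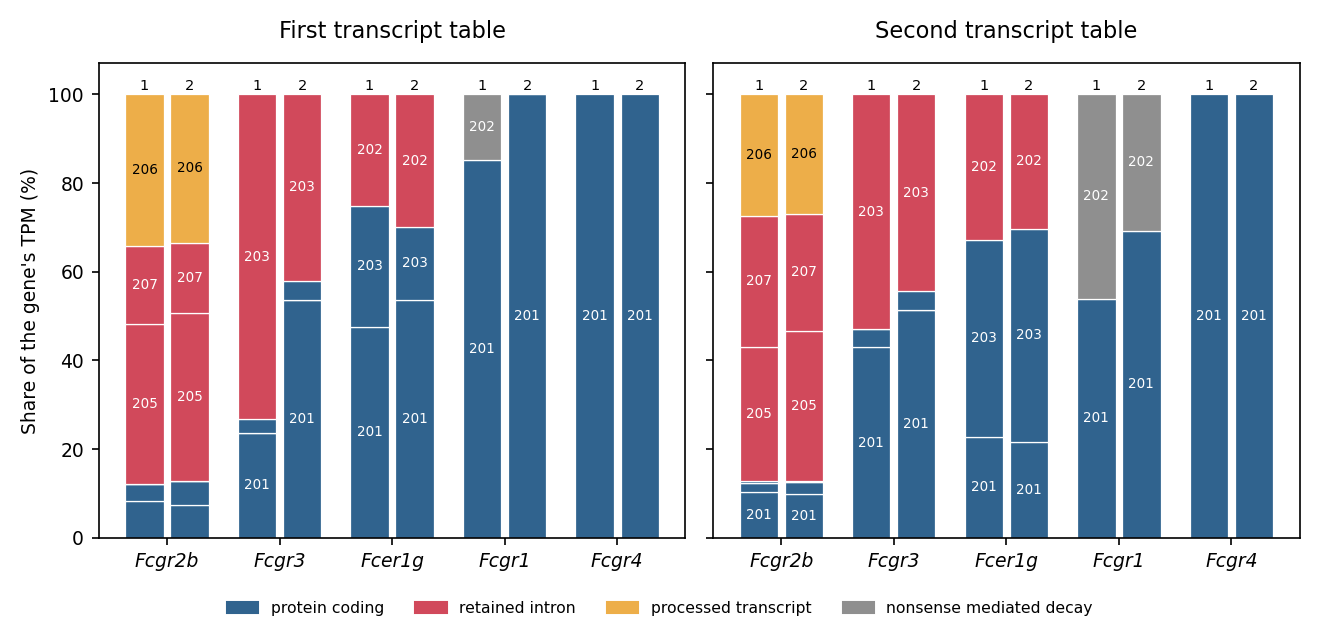
Share of each gene's TPM (%) on its annotated transcripts, coloured by annotated class and labelled with the transcript number where the share is above 9%. Each gene has a bar for replicate 1 and one for replicate 2, with the first transcript table on the left and the second on the right. Protein-coding transcripts (blue) take 12.1% and 12.8% of Fcgr2b in the first table, and 26.8% and 58.0% of Fcgr3.

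The other genes divided their reads differently. Fcgr3 had 26.8% of its TPM on protein-coding transcripts in replicate 1 and 58.0% in replicate 2, so its mean of 42.4 ± 22.1% lies between distant values. Its main coding transcript Fcgr3-201 stood at 4.86 TPM in replicate 1 and 11.08 TPM in replicate 2, with deposited intervals of 2.09 to 6.96 and 7.22 to 12.7 TPM, while its retained-intron transcript Fcgr3-203 stood at 14.99 and 8.69 TPM, with intervals that overlapped. Their sum hardly differed, and the second transcript table gave protein-coding shares of 47.1% and 55.7%. Fcer1g had 74.9% and 70.1% of its TPM on protein-coding transcripts, at percentile 81.4 of the same genes. The rest lay on Fcer1g-202, a transcript of 361 bases, on 13.5 and 24.9 counts. Fcgr1 had 85.1% and 100%, and the rest of replicate 1 went to Fcgr1-202, a transcript annotated for nonsense-mediated decay, on 8.66 counts. The second transcript table gave that transcript 46.0% and 30.7% of Fcgr1 TPM, so its level is uncertain. Fcgr4 has a single annotated transcript.

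The coding transcripts of Fcgr2b differ in their cytoplasmic part. The longer b1 form of the receptor, known from B cells, has an extra stretch in its tail that the b2 form, known from macrophages, lacks. The exon for this stretch lies at chr1:170963325-170963465 (mm10, minus strand), and its 141 bases make 47 codons in frame. It is printed 5′ to 3′ with capitals for the first 57 bases, which are all that Fcgr2b-203 keeps of it.
Fcgr2b exon: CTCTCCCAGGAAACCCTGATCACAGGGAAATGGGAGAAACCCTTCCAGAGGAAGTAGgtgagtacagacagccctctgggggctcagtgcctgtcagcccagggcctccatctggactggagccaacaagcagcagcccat
Fcgr2b-201 and Fcgr2b-204 hold the whole exon and Fcgr2b-202 lacks it. Fcgr2b-201, with the exon, stood above Fcgr2b-202 in both replicates, at 17.87 against 8.57 TPM and at 17.99 against 12.72 TPM. In the second transcript table these were 15.8 against 3.01 TPM and 24.4 against 6.80 TPM. Fcgr2b-203 and Fcgr2b-204 had 0 counts in the first table, and the second gave Fcgr2b-204 16.2 and 12.9 counts. The last exon of Fcgr2b-201 is 1941 bases longer than that of Fcgr2b-202, so the split between them reflects reads over that end as well as the cytoplasmic exon, and the 2 cannot be told apart in these tables. B cell markers were low beside this in the gene table, where the 7 markers summed to 1.32 and 1.76 TPM, mostly Cr2 at 1.06 and 1.37 TPM, while Cd79a had 2 and 6 counts and Pax5 and Ebf1 had 0. The second transcript table gave Cr2 8.06 and 4.29 TPM and Ebf1 2.00 and 2.29 TPM, which is in the range of Fcgr2b-202 there. The part of B cell RNA in the split was not tested. RNA not yet spliced holds the cytoplasmic exon whichever form it will give, and Fcgr2b-202 has 0 bases that no other transcript holds. The split thus does not show which form of the receptor these cells make, and the part of unspliced RNA was not tested.

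Fcer1g also has alternative coding ends. Fcer1g-201 and Fcer1g-203 code for 258 and 276 bases, and Fcer1g-203 holds 74 bases in no other transcript. These 74 bases run on past an exon end of Fcer1g-201 into its intron. Reads over this stretch of intron thus count as protein-coding here. The first table placed Fcer1g-201 higher, at 18.73 and 22.51 TPM against 10.73 and 6.89 TPM. The second table placed it lower, at 12.6 and 21.3 TPM against 24.5 and 47.0 TPM. The order of these transcripts was therefore not settled by these data.

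The second transcript table was made from the reads and a transcript index without the alignment behind the first. Its summed levels kept Fcgr2b highest (151 and 246 TPM), followed by Fcer1g (55.2 and 97.9 TPM). Fcgr3 (18.8 and 30.3 TPM) and Fcgr1 (19.2 and 20.9 TPM) overlapped there, and Fcgr4 was lowest (4.81 and 6.81 TPM). It gave more counts than the first table for each of the 5 genes, as for most genes, with a median ratio of 1.74 and 1.75 in replicates 1 and 2 over 10288 genes. Fcer1g had 3.41 and 3.89 times the counts, Fcgr4 2.69 and 2.84, and Fcgr3 2.15 and 2.25. These 3 genes were at least 2-fold higher in both replicates, as were 28.1% of genes with 20 or more counts per library. Fcgr1 had 2.04 and 1.98 times the counts and Fcgr2b 1.56 and 1.52 times.

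Counts that are not whole numbers mark genes whose reads were shared out. Fcgr1, Fcgr4 and Fcer1g had whole-number counts in both libraries. Fcgr2b had 2873.85 and 4794.86 and Fcgr3 227.15 and 347.14, and their sums were the whole numbers 3101 and 5142 to the 2 decimals deposited. Since Fcgr2b held over 10 times the counts of Fcgr3, a small error in dividing shared reads would weigh more on Fcgr3, and the level of Fcgr3 is uncertain for this reason.

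The 2 libraries gave similar levels of all 5 genes. Log2 ratios of replicate 2 over replicate 1, on counts scaled by TMM with 0.5 added, were 0.24 for Fcgr2b, 0.11 for Fcgr3, 0.09 for Fcer1g, -0.12 for Fcgr1 and -0.13 for Fcgr4. Counting error alone gave a 95% interval of 0.17 to 0.30 for Fcgr2b, and intervals that included 0 for the other 4. Over 9109 nuclear protein-coding genes averaging 50 or more counts the median was 0.02 and the quartiles -0.11 and 0.16, so Fcgr2b lay at percentile 83.8. None of the 5 was 2-fold or more apart between the libraries, against 0.22% of those genes. RNA input differed between the libraries, and its part in these ratios was not tested.

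Fcgr2b, Fcgr4, Fcgr3 and Fcer1g lie within 275.7 kb of chromosome 1, the first 3 of them within 106.3 kb, whereas Fcgr1 lies on chromosome 3 beside the Hist2 histone genes. Levels differed steeply between neighbours. Fcrla and Fcrlb, Fc receptor-like genes 31 kb and 45.7 kb from Fcgr2b, had 6 and 3 counts and 0 counts in replicates 1 and 2, next to the most abundant of the 5 genes. Fcgr4 lies 42.4 kb from Fcgr2b and 21.4 kb from Fcgr3. Tomm40l, 7.06 kb from Fcer1g, stood at 12.36 and 10.60 TPM. Apoa2, which encodes an apolipoprotein and lies 3.19 kb from Fcer1g, had 1 and 0 counts.

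Overlapping genes bear on what the reads can be assigned to, since no label or header says whether these libraries kept strand. Gm38204, an antisense gene, overlaps Fcgr2b by 3175 bases. It had 0 and 1 counts in the gene table but 100 and 172 in the second transcript table. Mir6546 within Fcgr3 had 0 counts and Gm26110, a small nuclear RNA gene within Fcgr4, had 1 and 0. Around Fcgr1 no annotated gene overlapped, and Hist2h2aa2 was the highest protein-coding gene within 50 kb, at 10.96 and 22.02 TPM. Histone copies share sequence, so that value is uncertain.

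**Figure D3:**
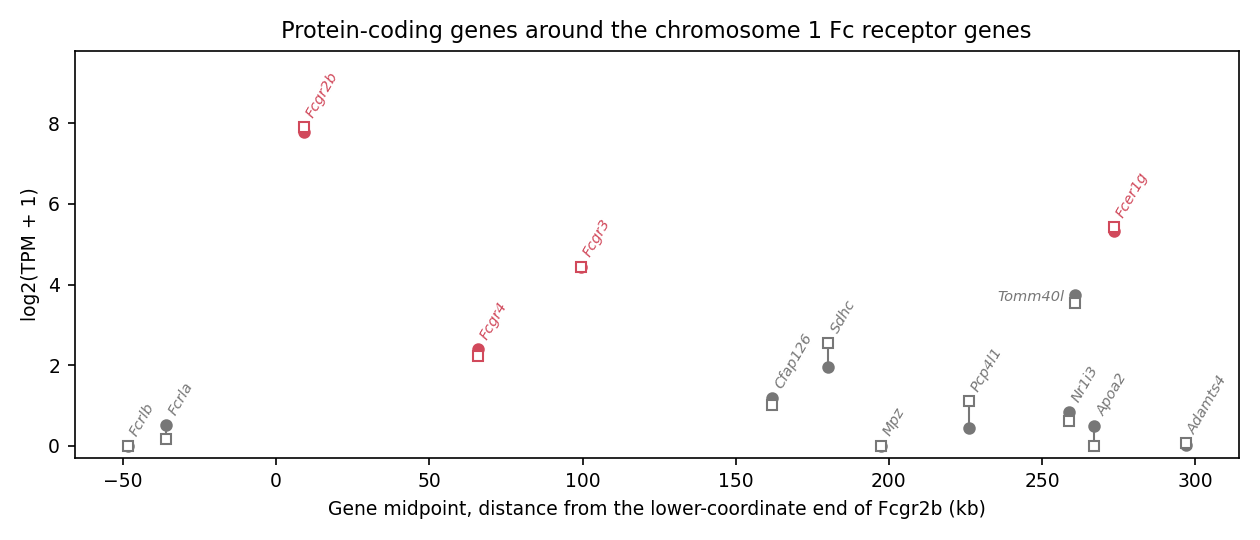
Levels of protein-coding genes of the region, not all of them shown, as log2(TPM + 1), against the distance of each gene's midpoint from the lower-coordinate end of Fcgr2b in kb, with replicate 1 as circles and replicate 2 as squares. Fcgr2b, Fcgr4, Fcgr3 and Fcer1g are in red and other genes in grey. Fcgr2b stands highest in the window, and Fcrlb beside it is at 0.

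A binding motif of PU.1, the factor that directs macrophage development, was looked for before RefSeq start sites of these genes. RefSeq start sites on GRCm38.p6 were matched for all 5 genes, and GAGGAA was searched on both strands (TTCCTC on the other) in the 250 bases before each. It was present for Fcgr1, Fcgr3 and Fcgr4 and not for Fcgr2b or Fcer1g. Of 32851 promoters of that length 23.3% held it, so a match is a description of these letters only. The window of Fcgr2b (chr1:170976072-170976321) lies within that gene as GENCODE annotates it. So do those of Fcgr3 (chr1:171059404-171059653 and chr1:171059395-171059644), and none of these describes the sequence upstream of the GENCODE gene.

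The listed exchange factor, effector and inhibitory genes were all detected, while most other Fc receptor and tyrosine-motif adaptor genes were not. Of 77 pathway genes in 6 lists, 57 were detected, and the median level over all 77 was 18.8 ± 1.03 TPM, set beside 46.7% detected among nuclear protein-coding genes and their median of 0.705 ± 0.0495 TPM. Among 14 other Fc receptor genes 4 were detected: Trim21, a cytosolic antibody receptor (22.53 and 27.17 TPM), Fcgrt, the neonatal Fc receptor (15.95 and 13.90 TPM), Fcrls (8.06 and 6.07 TPM) and Fcrl1 (1.70 and 2.18 TPM). Fcer2a stood at 0.63 and 0.84 TPM in the gene table but at 6.11 and 8.87 TPM in the second transcript table. Fcer1a, Pigr, Fcamr, Fcmr and Fcrlb had 0 counts in both replicates of the gene table. The IgE receptor chains that share Fcer1g in mast cells were thus at or near 0, with 0 and 1 counts for Ms4a2. Of 6 other genes of tyrosine-motif adaptors 2 were detected. Tyrobp, which encodes DAP12, stood at 27.50 and 27.01 TPM, below Fcer1g in both libraries. Hcst was detected at 2.97 and 2.67 TPM on 6 and 8 counts (21.9 and 21.7 TPM in the second transcript table), and Cd3e had 0 counts.

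Of 12 Src-family, Syk-family and Tec-family kinase genes 6 were detected, a share near the 46.7% of all nuclear protein-coding genes. The second transcript table detected 8 of the 12, beside 12220 of 22015 nuclear protein-coding genes. Syk, whose product binds the phosphorylated gamma chain, stood at 229.83 and 201.50 TPM in the gene table, above all activating receptor genes. Tec (70.99 and 80.80 TPM) and the Src-family gene Lyn (74.47 and 71.01 TPM) followed, and the lymphocyte kinase genes Lck and Blk had 0 counts. All 15 adaptor and exchange factor genes were detected (median level 56.7 ± 2.21 TPM). Dock2, which activates Rac in leukocytes, was highest (284.04 and 272.67 TPM), then the adaptor gene Lat2 (217.13 and 208.30 TPM) and Vav3 (95.19 and 89.81 TPM), while the T cell adaptor gene Lat was lowest (1.95 and 1.90 TPM).

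Every one of 18 genes of lipid enzymes and effectors was detected (median level 39.2 ± 6.02 TPM). Prkcd, a protein kinase C gene (267.33 and 274.12 TPM), was highest, and Pik3r5, a regulatory subunit of PI 3-kinase, stood at 96.63 and 86.32 TPM. Rac2 was lowest in the gene table (8.68 and 7.75 TPM) but stood at 53.4 and 79.2 TPM in the second transcript table. Each of 12 genes of inhibitory phosphatases and adaptors was detected too (median level 22.8 ± 2.28 TPM). Inpp5d, the phosphatase that acts downstream of Fcgr2b, led the list at 181.20 and 194.04 TPM. Inppl1 (87.62 and 68.45 TPM) and Csk, the kinase that restrains Src-family kinases (72.87 and 61.06 TPM), came next, and Inpp4b was lowest (1.48 and 1.69 TPM). The inhibitory receptor gene, its phosphatase gene and Syk thus all lay between 181.20 and 239.22 TPM in the gene table. With protein-coding transcripts alone they lay apart, with Syk at 109.37 and 94.91 TPM, Inpp5d at 52.88 and 48.22 TPM and Fcgr2b at 26.44 and 30.71 TPM.

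**Figure D4:**
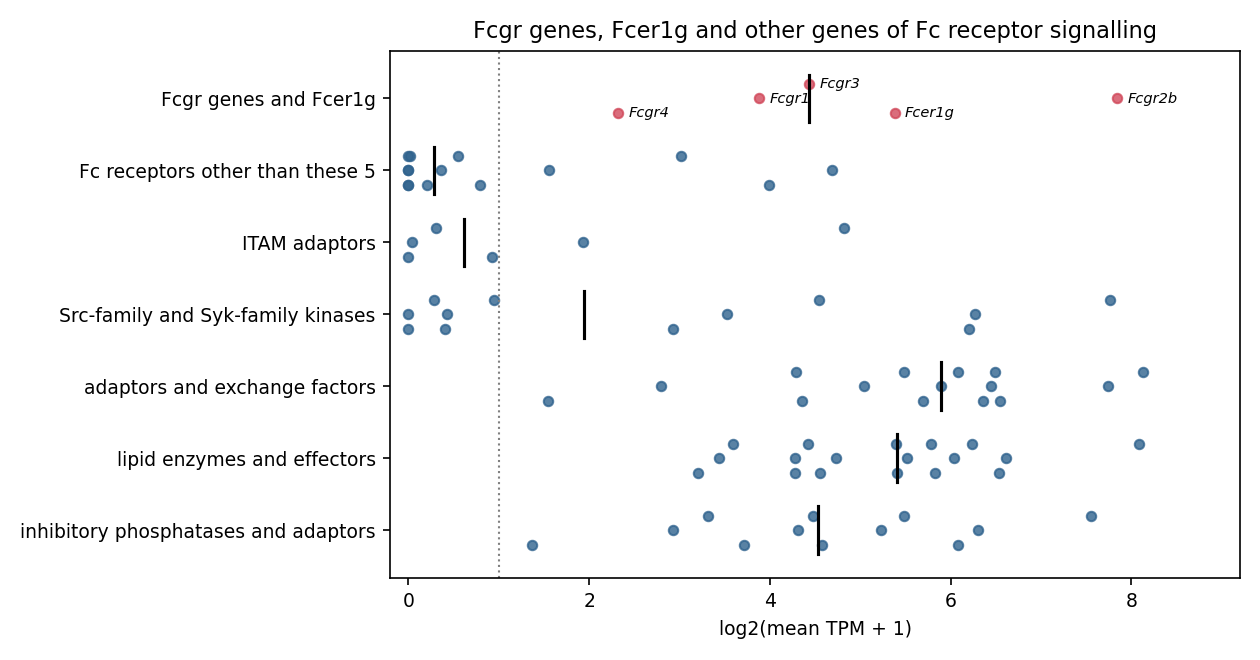
Mean level over both replicates, as log2(mean TPM + 1), of the 4 Fcgr genes and Fcer1g (red) and of 77 other genes in 6 lists (blue), 1 point per gene, with the median of each row as a black line and 1 TPM as a dotted line. Fcgr2b stands at the upper end, and the lists of adaptors, effectors and inhibitory genes lie wholly above 1 TPM.

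Macrophage markers were present, and in the gene table markers of natural killer cells, mast cells and neutrophils were below 1 TPM, while a few dendritic cell and platelet markers were above it. All 10 macrophage markers were detected, with Lyz2 at 190.58 and 161.40 TPM and Csf1r at 185.26 and 161.29 TPM. None of 7 natural killer cell, 7 mast cell and basophil, or 7 neutrophil markers was detected in the gene table, and these lists summed to at most 0.13, 0.62 and 1.49 TPM in a replicate. The highest of each list by mean TPM were Klrk1 (0.13 and 0.02 TPM), Kit (0.35 and 0.54 TPM) and S100a9 (0.71 and 0 TPM). Natural killer cell markers had 0 counts for 6 of 7, and mast cell and neutrophil markers for 4 of 7 each. The second transcript table put the mast cell marker Cpa3 (1.24 and 1.29 TPM) and the neutrophil marker Mpo (1.15 and 1.64 TPM) past 1 TPM in both libraries, and no natural killer cell marker. Of 7 dendritic cell markers Batf3 (6.61 and 4.04 TPM) and Zbtb46 (1.47 and 1.67 TPM) were detected. Batf3 rested on 28 and 23 counts and had 0 and 0.49 TPM on protein-coding transcripts. The second transcript table also put Siglech past 1 TPM (2.07 and 2.11 TPM). Of 5 platelet and megakaryocyte markers Pf4 (11.98 and 3.50 TPM) and Itga2b (2.64 and 1.01 TPM) were, and the list summed to 15.4 and 4.81 TPM. In bulk RNA, fewer cells of a type and less RNA per cell cannot be told apart.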

How the data were processed

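The deposited tables of 2 libraries were used as given. The authors deposited expected counts and TPM per gene and per transcript (gene table and first transcript table), from an alignment to GENCODE M21 transcripts on mm10, per the notes deposited with the files. A second deposited transcript table gives estimated counts and TPM from the reads and a transcript index. The column layouts are those of RSEM and kallisto, and neither labels nor notes name the tools. The deposited bounds around each TPM are a signal whose interval level is not stated. Gene counts summed to 10933708 and 14168886 in replicates 1 and 2, so that 3 counts, the limit a count of 0 allows, are 0.274 and 0.212 RPM (counts scaled to the same sum as TPM, not divided by length), for counting error only.

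Genes and transcripts were matched by identifier. Classes and exons came from the annotation, promoter sequence from RefSeq. Detection meant 1 TPM or more in both replicates. Means ± SD are over 2 replicates, and with 1 group no test was run. Replicate ratios used TMM factors (edgeR 4.0.16, R 4.3.3), with DESeq2 1.42.0 size factors as an alternative, and were tested on simulated data. Other steps used Python 3.11.15 with pandas 2.3.3. Genes named were the 5 genes, the 3 highest and the lowest of each pathway list, the 2 highest of each marker list, the 2 nearest in level to each gene, and neighbours within 50 kb. Other genes were named after their values were seen. Some genes that the rule takes are withheld and not reported here. The genes and lists were chosen with earlier results of these data known. Alternatives tried were the second table, posterior mean TPM, rescaling, counts not divided by length, protein-coding transcripts alone (added after the data were seen), other thresholds and leaving out each replicate.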

Additional observations from a re-analysis of the deposited data

How the results depend on the processing

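Of 89 values from alternatives that keep both replicates, 48 stayed within 1 SD of the replicates, the counting interval or 1.5 times a count, 39 moved further and 2 changed sign. No test was run, so none could lose or gain a call. In the second transcript table levels were 20.1 TPM for Fcgr1, 198.5 for Fcgr2b, 24.6 for Fcgr3, 5.81 for Fcgr4 and 76.6 for Fcer1g. Rescaled to nuclear protein-coding genes they were 53.8, 902, 81.2, 15.7 and 160.3, which keeps their order and ratios. Posterior means were 208.4 for Fcgr2b, 19.2 for Fcgr3 and 37.8 for Fcer1g. With protein-coding transcripts alone, Fcgr2b was at 28.6 TPM, Fcgr3 at 8.75 and Fcer1g at 29.4.

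Log2 ratios to Fcgr2b were, in the second table, -3.27 for Fcgr1, -3.01 for Fcgr3, -5.07 for Fcgr4 and -1.95 for the activating sum. On counts not divided by length they were -3.30, -3.72 and -6.18 for the single genes. With protein-coding transcripts alone they were -1.19, -1.81, -2.84 and, for the sum, -0.18 in the first table, and -1.01, -1.01, -2.11 and, for the sum, 0.30 in the second, the last a change of sign. The log2 ratio of Fcer1g to the activating sum was 0.56 in the second table, 0.73 there with protein-coding transcripts alone, and -1.97 on counts, where the short Fcer1g transcripts are not corrected for length.

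Protein-coding shares were 61.6% for Fcgr1 and 68.4% for Fcer1g in the second table, and 24.6% for Fcgr2b and 89.8% for Fcer1g as shares of counts. Taken from TPM, the replicate ratios were -0.39 for Fcgr1 and 0.14 for Fcgr2b. Pathway genes detected numbered 60 at 0.5 TPM, 53 at 5 TPM and 60 in the second table, against 57.

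Leaving out either replicate leaves 1 library, so the values are those of single libraries, which by construction lie within 1 SD of their mean: levels from 217.65 to 239.22 TPM for Fcgr2b, 39.33 to 41.94 for Fcer1g, 20.49 to 20.69 for Fcgr3, 11.85 to 15.57 for Fcgr1 and 3.69 to 4.28 for Fcgr4, log2 ratios to Fcgr2b from -2.72 to -2.43 for the activating sum, and 57 to 58 pathway genes detected. The log2 ratio of Fcer1g to the activating sum ran from -0.037 to 0.21, a change of sign without replicate 2. No paired analysis was possible because both libraries belong to 1 group. Fcgr4 rested on 45 and 58 counts, so depth limits its level most.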
